A study of Mus musculus with 10 samples.

Results

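White fat from mice given the β3-adrenergic agonist CL316,243 was compared with brown fat from saline-injected mice, to see which transcripts still differed after the treatment. The comparison used 4 of the series' 10 one-colour microarrays, namely 2 of CL white fat and 2 of saline brown fat, chosen by their labels. Read beside them were 2 arrays of white fat from saline-injected mice and 4 single arrays of brown adipocytes in culture at days 0, 3, 5 and 7 of differentiation. All mice were wild type on chow. They received 1 mg/kg CL316,243 or saline by daily intraperitoneal injection for 7 days. The saline brown fat therefore differed from the CL white fat in both depot and treatment, and no brown fat from CL-treated mice was analysed here. The sources used here do not state sex, age, strain or which white depot was taken. The labels call the paired arrays biological replicates without saying whether animals were pooled.

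Brown adipocytes burn fuel for heat through uncoupled respiration, whereas white adipocytes mainly store triglyceride. Stimulation of the β3-adrenergic receptor drives lipolysis in adipocytes, and prolonged stimulation makes thermogenic beige adipocytes appear in white depots. Long intergenic non-coding RNAs (lincRNAs) are spliced transcripts outside protein-coding genes, several of which are known to act in adipocyte differentiation. Ultraconserved elements are stretches of genome with unusual sequence identity between mammals, some of them transcribed.

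The array held 59709 probe names, which fell into 5 classes. There were 51842 probes with a design number only, 5365 lincRNA exon probes, 1417 probes with a transcript accession, 962 ultraconserved element probes and 123 probes with a RefSeq accession. Of the RefSeq probes, 116 could be given 1 gene symbol. A run of 24592 consecutive design numbers had no probe in the authors' deposited value table and is given apart from the other design numbers. Because the files do not pair design numbers with genes, those probes are described by number. Of 17 thermogenic genes listed for the study, Gk was the 1 found among the named probes. None of the listed beige genes, white fat genes, named long non-coding RNAs, or adipocyte and brown adipocyte markers such as Ucp1, Cidea and Adipoq was found there, so the tissue labels were not checked against those genes.

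Levels are log2 processed signals from which the array's own 75th percentile was subtracted, so that 0 is the level under which 75% of that array's probes lay. CL replicate 1 was the brightest of the 4 arrays before this scaling, with a 75th percentile of 9.19 on the log2 scale, against 7.88 for CL replicate 2 and 7.74 and 8.08 for the brown fat arrays. Probes marked well above background made up 62.4% and 63.4% of all probes on the CL arrays and 55.1% and 67.8% on the brown fat arrays. The CL arrays lay in the second column of their slide and the brown fat arrays in the first, both in rows 1 and 2, so tissue and slide column cannot be told apart. The 2 CL arrays correlated with each other at 0.939, against 0.980 for the brown fat pair. CL replicate 1 correlated with the brown fat arrays at 0.898 and 0.916, and CL replicate 2 at 0.939 and 0.952. The 2 CL arrays differed by at least 2-fold on 35.0% of tested probes, whereas the 2 brown fat arrays did so on 8.86%. Class counts, class medians and most named probes below are therefore given with the CL arrays shown one by one. The results on calls by signal level, strands, detection and cultured cells take both CL arrays together.

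Tested were the 43525 probes for which some tissue group had both its arrays well above background. With both CL arrays, 1523 probes passed limma's moderated test at an adjusted p under 0.05, or 3.50% of those tested. CL white fat was higher on 866 of them (1.99%) and lower on 657 (1.51%). Of the 1523 called probes, 920 were well above background on all 4 arrays. For 249 of the higher calls neither brown fat array was so, and for 167 of the lower ones neither CL array. Calls on probes that entered the test only through the group where they were high were close to fixed by the filter. These were not counted apart. The higher probes had a median difference of 2.61 on the log2 scale, and 284 of the 866 exceeded 8-fold. For the lower probes the median was -2.56, with 212 of 657 past 8-fold. Over all tested probes the median was -0.03, with 1.35% past 8-fold. The side on which most calls lay was not stable. Calls on the higher side made up 56.9%, but 49.3% after quantile normalization and 49.1% after median scaling. The authors' deposited value table gave 32.8%, where its 18943 tested probes had given 43.7% with the scanner values.

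Lower calls outnumbered higher ones among lincRNA and transcript accession probes. In the unlisted run of design numbers, higher calls outnumbered lower ones. Over all tested probes, 1.99% were called higher and 1.51% lower. The lower shares of lincRNA and transcript accession probes were near the share of all probes, and their higher shares were below it. Among lincRNA exon probes, 26 were higher (0.806%) and 56 lower (1.74%) in CL white fat of 3227 tested, and the class median was -0.32. Of these calls, 16 of the higher had neither brown fat array well above background, and 14 of the lower neither CL array. Transcript accession probes gave 8 higher (0.892%) and 15 lower (1.67%) of 897, with a median of -0.14. Ultraconserved element probes gave 6 higher (1.36%) and 4 lower (0.909%) of 440, with a median of -0.26. RefSeq probes gave 1 higher and 1 lower of 119, with a median of 0.34. Design numbers of the unlisted run gave 515 higher (2.66%) and 277 lower (1.43%) of 19396, with a median of 0.11. The remaining design numbers gave 310 higher (1.59%) and 304 lower (1.56%) of 19446, with a median of -0.08. Their calls lay mostly on the lower side with normexp (326 higher, 450 lower), quantile normalization (315 and 404), median scaling (381 and 481) and the deposited value table (371 and 667). The side of the lincRNA, transcript accession and unlisted-run calls was the same with normexp, quantile normalization and median scaling. Ultraconserved element calls were 3 higher and 4 lower with normexp, and equal in number on both sides with quantile normalization and median scaling.

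**Figure D1:**
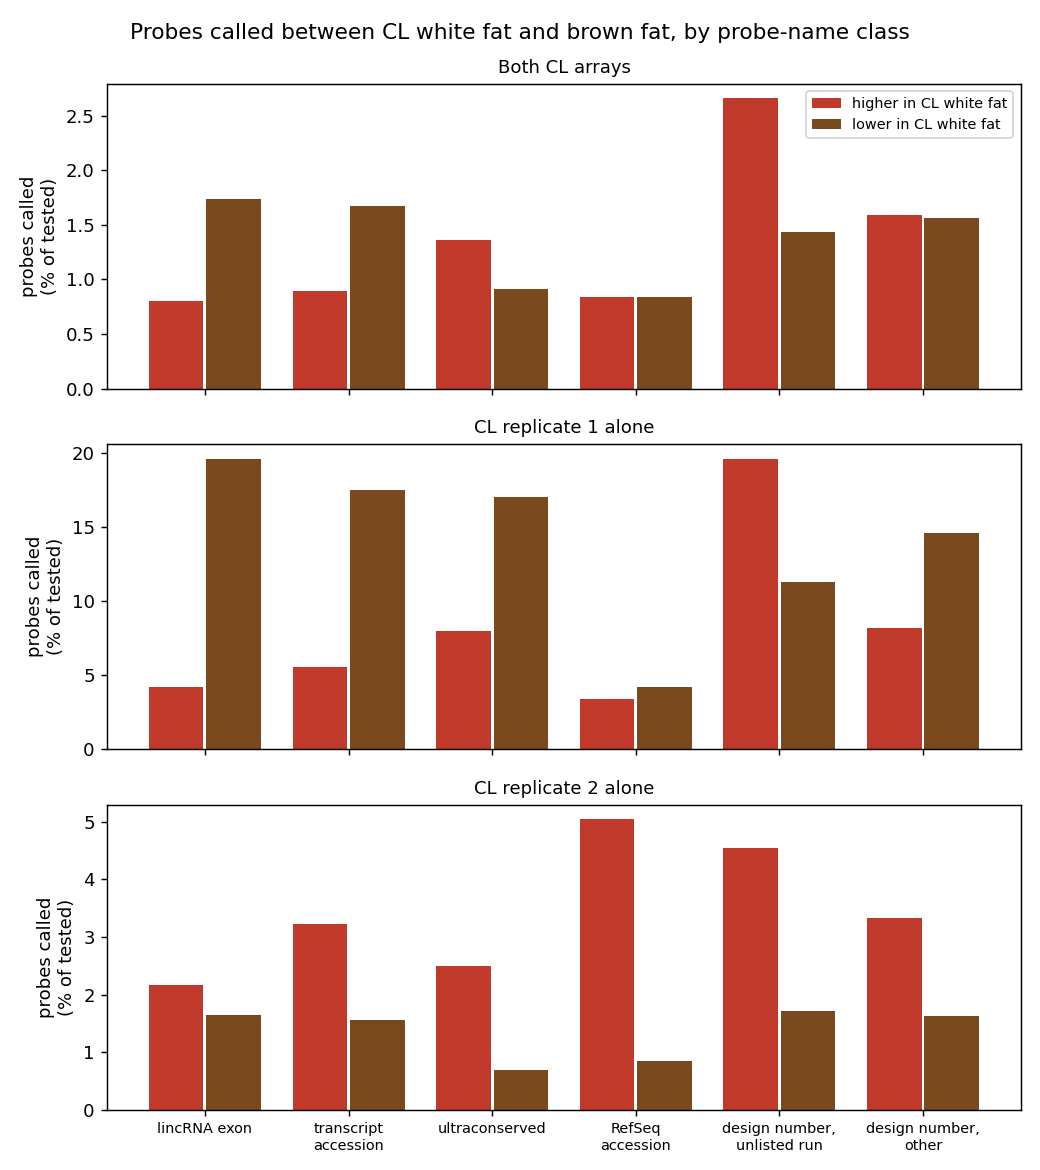
Percentage of tested probes called higher or lower in CL white fat than in brown fat (y axis, each panel with its own scale) for each probe-name class (x axis), with both CL arrays (top) and with each CL array alone. The lower calls exceed the higher ones among lincRNA probes with both arrays (56 against 26) and with CL replicate 1 (634 against 135), but not with CL replicate 2 (53 against 70).

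Taken alone, CL replicate 1 stood farther from brown fat than CL replicate 2 did. The median absolute distance over all tested probes was 0.76 on the log2 scale for CL replicate 1 and 0.55 for CL replicate 2. Counts of calls, which depend on a threshold, set the 2 arrays further apart than these distances do. With CL replicate 1 as the only CL array, 11515 probes were called (26.5%), 5623 higher (12.9%) and 5892 lower (13.5%). With CL replicate 2 alone, 2366 were called (5.44%), 1647 higher (3.78%) and 719 lower (1.65%). With saline white fat left out as well, the fits gave 4734 calls for CL replicate 1 and 0 for CL replicate 2 by limma, the second with 10935 probes at an unadjusted p under 0.05. Without the filter they gave 2203 and 7. The lone array had to be assumed to vary like the other groups in these fits. CL replicate 2 was the nearer to the brown fat mean on 63.4% of tested probes, on 66.7% of lincRNA probes and on 71.4% of ultraconserved element probes. RefSeq probes went the other way, with CL replicate 2 the nearer on 31.9% of them. There the median absolute distance from brown fat was 0.45 for CL replicate 1 and 0.91 for CL replicate 2.

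In the fits with a lone CL array, the lincRNA calls leaned lower only with CL replicate 1. That array alone gave 135 lincRNA probes higher and 634 lower, whereas CL replicate 2 alone gave 70 higher and 53 lower. The transcript accession probes behaved likewise, with 50 higher and 157 lower on CL replicate 1 alone and 29 higher and 14 lower on CL replicate 2 alone. For ultraconserved element probes the counts were 35 higher and 75 lower with replicate 1, and 11 higher and 3 lower with replicate 2. The other design numbers gave 1595 higher and 2836 lower with replicate 1, and 648 higher and 317 lower with replicate 2. The calls of the unlisted run leaned higher with either array, but with replicate 2 so did the calls over all tested probes. The median of the unlisted run differed from that of all tested probes by 0.24 on replicate 1 and -0.01 on replicate 2. Whether the brighter hybridisation of CL replicate 1 had a part in these leans was not tested.

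**Figure D2:**
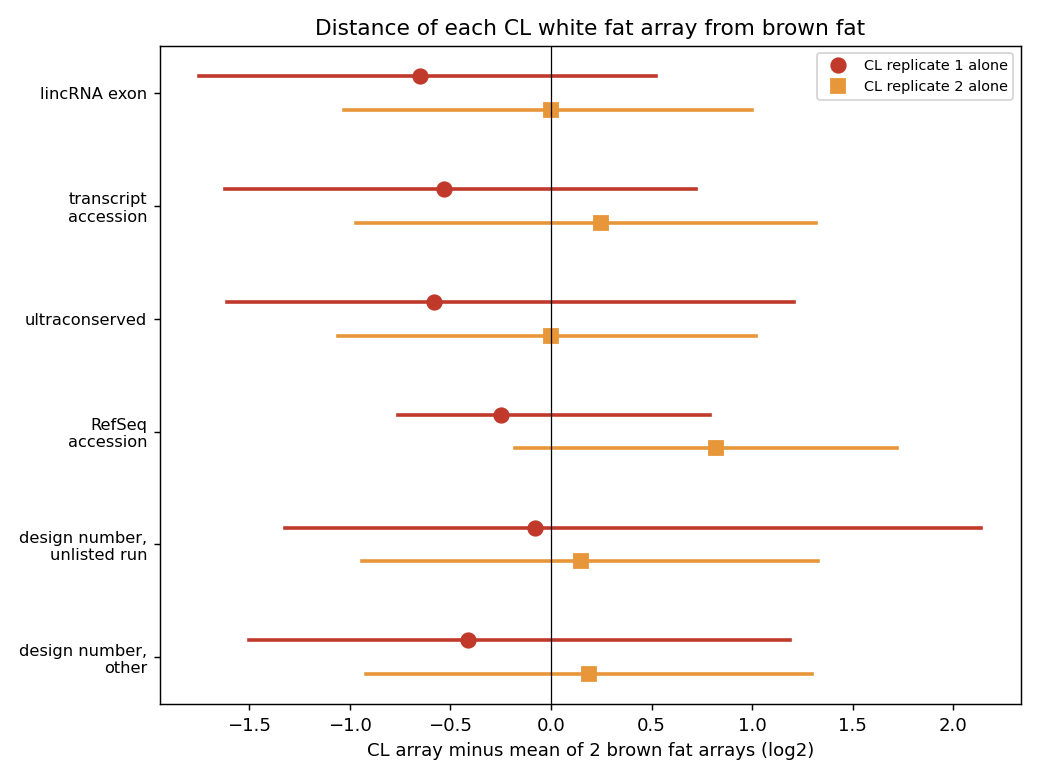
Distance of each CL white fat array from the mean of the 2 brown fat arrays (x axis, log2) by probe-name class, with the median as a point and the 10th to 90th percentile of probes as a line. The lincRNA medians are -0.65 for CL replicate 1 and 0.00 for CL replicate 2, and the RefSeq medians are -0.25 and 0.82.

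Measured against all tested probes on the same array, lincRNA probes sat on the low side of both CL arrays. The lincRNA medians of -0.65 on CL replicate 1 and 0.00 on CL replicate 2 compare with -0.31 and 0.16 for all probes. The lincRNA offset from all probes was thus -0.34 on replicate 1 and -0.15 on replicate 2. Under normexp background correction, quantile normalization, median scaling and the deposited value table, the lincRNA median was also below that of all probes on both arrays, with offsets between -0.16 and -0.08 on replicate 2. For the unlisted run the offset was 0.24 on replicate 1 and -0.01 on replicate 2. Transcript accession probes lay on opposite sides, at -0.21 on replicate 1 and 0.09 on replicate 2. These offsets are descriptions of whole classes, whose probes share an array and are not replicates.

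Because lincRNA probes were dimmer than the rest, with a median level of -1.96 against -1.29 for all probes, the distance was also read within 5 equal bins of signal level. In the brightest bin, 315 lincRNA probes had a median distance from brown fat of -0.71 on CL replicate 1 and -0.34 on CL replicate 2. All 8697 probes of that bin had -0.36 and 0.22. In the dimmest bin, 866 lincRNA probes had -0.51 and 0.29, where all probes had -0.22 and 0.42. The lincRNA median was thus the lower in both of these bins on both arrays. In the brightest bin, 2 lincRNA probes were called higher and 18 lower, and in the dimmest 11 higher and 9 lower. All probes gave 182 higher and 199 lower in the brightest bin, and 175 higher and 97 lower in the dimmest. Between the 2 brown fat arrays, the median lincRNA gap ranged from -0.10 to 0.14 over the 5 levels.

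**Figure D3:**
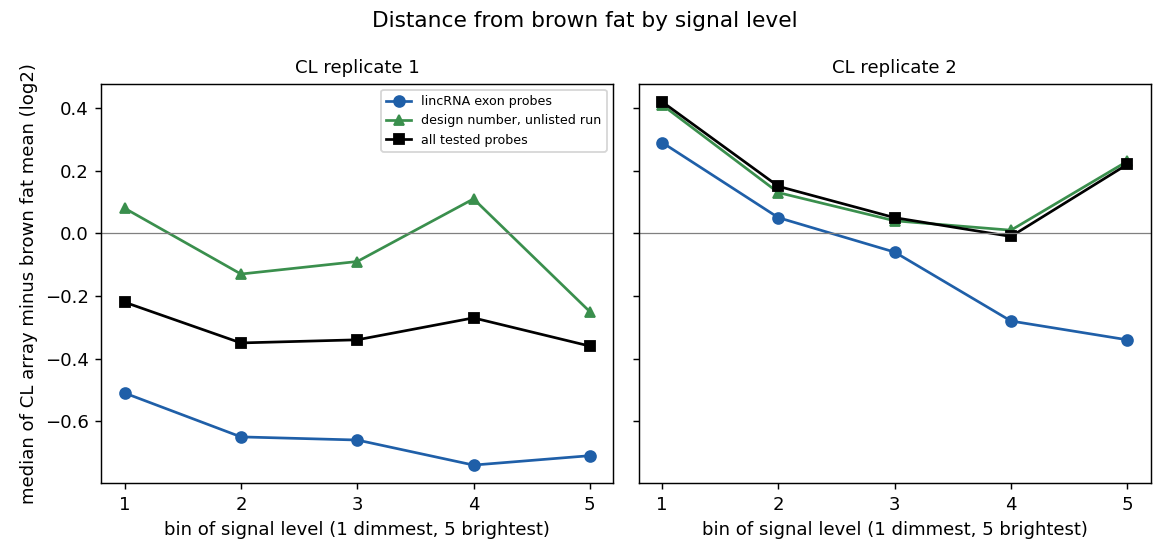
Median distance of each CL white fat array from the brown fat mean (y axis, log2) in 5 equal bins of signal level (x axis, from dimmest to brightest). In the brightest bin the lincRNA probes lie at -0.71 on CL replicate 1 and -0.34 on CL replicate 2, below all probes at -0.36 and 0.22.

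Among the 112 tested probes with a gene symbol, 2 were called. Gk, glycerol kinase, which phosphorylates glycerol so that it can be used again for triglyceride synthesis, was lower in CL white fat. Its level was -1.10 on both CL arrays, against 0.59 and 0.80 in brown fat, and -1.79 and -1.67 in saline white fat. The CL arrays thus lay below both brown fat arrays and above both saline white fat arrays. The difference from saline white fat was 0.63 (SE 0.34) and was not called (adjusted p = 0.952 by limma). The difference from brown fat was -1.79 (SE 0.34, adjusted p = 0.0386 by limma), and it lost its call in 8 of 18 alternative settings. Among the 8, the fit of the 4 arrays alone is counted again under the omission of either saline white fat array. Gm4312, a predicted gene, was higher in CL white fat at 1.34 and 1.97, against -0.67 and -0.05 in brown fat. In saline white fat it had 1.95 and 1.52. Its difference was 2.02 (SE 0.42, adjusted p = 0.0487 by limma), and it too lost its call in 8 of 18 settings.

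Of the 112 symbol probes, 36 (32.1%) had both CL arrays outside the brown fat pair on the same side, compared with 49.6% of all tested probes. None of the 7 reference genes was called. Gapdh, a glycolytic enzyme, had 8.72 and 9.59 in CL white fat against 9.91 and 9.54 in brown fat, and these ranges overlapped. Actb, cytoplasmic β-actin, had 6.62 and 7.63 in CL white fat and 6.68 and 6.65 in brown fat, with CL replicate 1 just under and CL replicate 2 above the brown fat arrays. Hprt, a purine salvage enzyme, was the reference gene farthest from brown fat at 6.73 and 7.48 in CL white fat, against 5.98 and 6.08 in brown fat (difference 1.07, SE 0.39, adjusted p = 0.165 by limma). Ppia, B2m, Tbp and Tfrc differed by between -0.14 and 0.26 on the log2 scale. For Ppia (8.69 and 9.68) and B2m (8.65 and 9.68), the 2 CL arrays lay on either side of the brown fat arrays. Tmlhe, which starts carnitine synthesis, had 0.01 and -1.57 in CL white fat against -1.33 and -1.82 in brown fat, so that CL replicate 1 alone stood apart.

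Probes for 3 of 5 listed copies of Ccl21, a chemokine of lymph node stroma and lymphatic endothelium, were bright in all tissue arrays. Ccl21b had 6.16 and 7.10 in CL white fat, against 4.26 and 5.58 in brown fat. In saline white fat it had 7.72 and 7.49. Ccl21c had 6.16 and 7.29 in CL white fat and 4.62 and 5.84 in brown fat, and Gm13304 had 6.25 and 7.30 in CL white fat and 4.48 and 5.63 in brown fat. Both CL arrays lay above both brown fat arrays for each copy, but none was called (adjusted p between 0.121 and 0.170 by limma). With normexp, Gm13304 and Ccl21b were called (adjusted p = 0.0268 and 0.0376 by limma), and Ccl21c was not. These copies are near-identical and their probes may read each other's RNA. Ccl21b and Ccl21c were the measured 2 of 5 listed lymphoid markers, and the part of lymphoid tissue in the other differences was not tested. In whole tissue, fewer cells of a type and less RNA per cell cannot be told apart.

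Named transcripts without a gene symbol gave wider differences. BC156060 had the widest difference among transcript accessions, at -6.87 on the log2 scale. It read -4.68 and -3.88 on the CL arrays, neither of them well above background, against 2.23 and 2.96 in brown fat. The saline white fat arrays were not well above background either. CL white fat was at least 73.3-fold lower. Because BC156060 entered the test only through brown fat, where it was high, it had to differ and no p is given for it. The same holds for AI427689, MM9LINCRNAEXON10173-, MM9LINCRNAEXON10825-, uc.394- and ASMM9PARTA025232, and, through CL white fat, for humanlincRNA0506-. With normexp correction, which adds an offset of 50, the difference of BC156060 was -4.58. Each probe given here with a bound, MM9LINCRNAEXON10204 left aside, had a smaller fold with normexp than that bound. In cultured brown adipocytes BC156060 stayed between -4.33 and -3.58 over the 4 days, well above background on 2 of the 4 arrays.

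BB791535 and AI427689 were likewise not well above background on either CL array and were so on both brown fat arrays. BB791535 had -5.08 and -3.46 in CL white fat against -0.28 and 0.41 in brown fat, a signal at least 12.7-fold lower (adjusted p = 0.0138 by limma). AI427689 had -5.96 and -5.58 against -1.20 and -2.06, at least 3.94-fold lower. AK138450 was measured on all 4 arrays, at -1.06 and -0.39 in CL white fat against 2.59 and 2.27 in brown fat (difference -3.15, SE 0.39, adjusted p = 0.0114 by limma). AI507368 had -0.09 and 1.05 in CL white fat against 3.78 and 3.48 in brown fat. ENSMUST00000133644 had -3.79 and -2.86 in CL white fat, 1 of those arrays being well above background, against -0.17 and 0.69 in brown fat.

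On the higher side, AK196148 had 2.84 and 2.58 in CL white fat against -1.64 and -0.82 in brown fat. Saline white fat read 3.54 and 3.32. The difference from brown fat was 3.94 (SE 0.41, adjusted p = 0.00629 by limma). AK038804 had 1.38 and 0.82 in CL white fat and -1.96 and -1.06 in brown fat, next to 1.08 and 0.80 in saline white fat. For AI530503 the levels were 1.68 and 2.51 in CL white fat and -0.32 and -0.29 in brown fat. AK015763 and FJ387503 were not well above background in brown fat. Their signals in CL white fat exceeded it by at least 7.43-fold and 2.01-fold, and FJ387503 lost its call with normexp, at a difference of 0.48. DV645173 had 0.73 and 0.66 in CL white fat against -1.55 and -0.98 in brown fat, and its call was lost in 8 of 19 alternative settings.

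**Figure D4:**
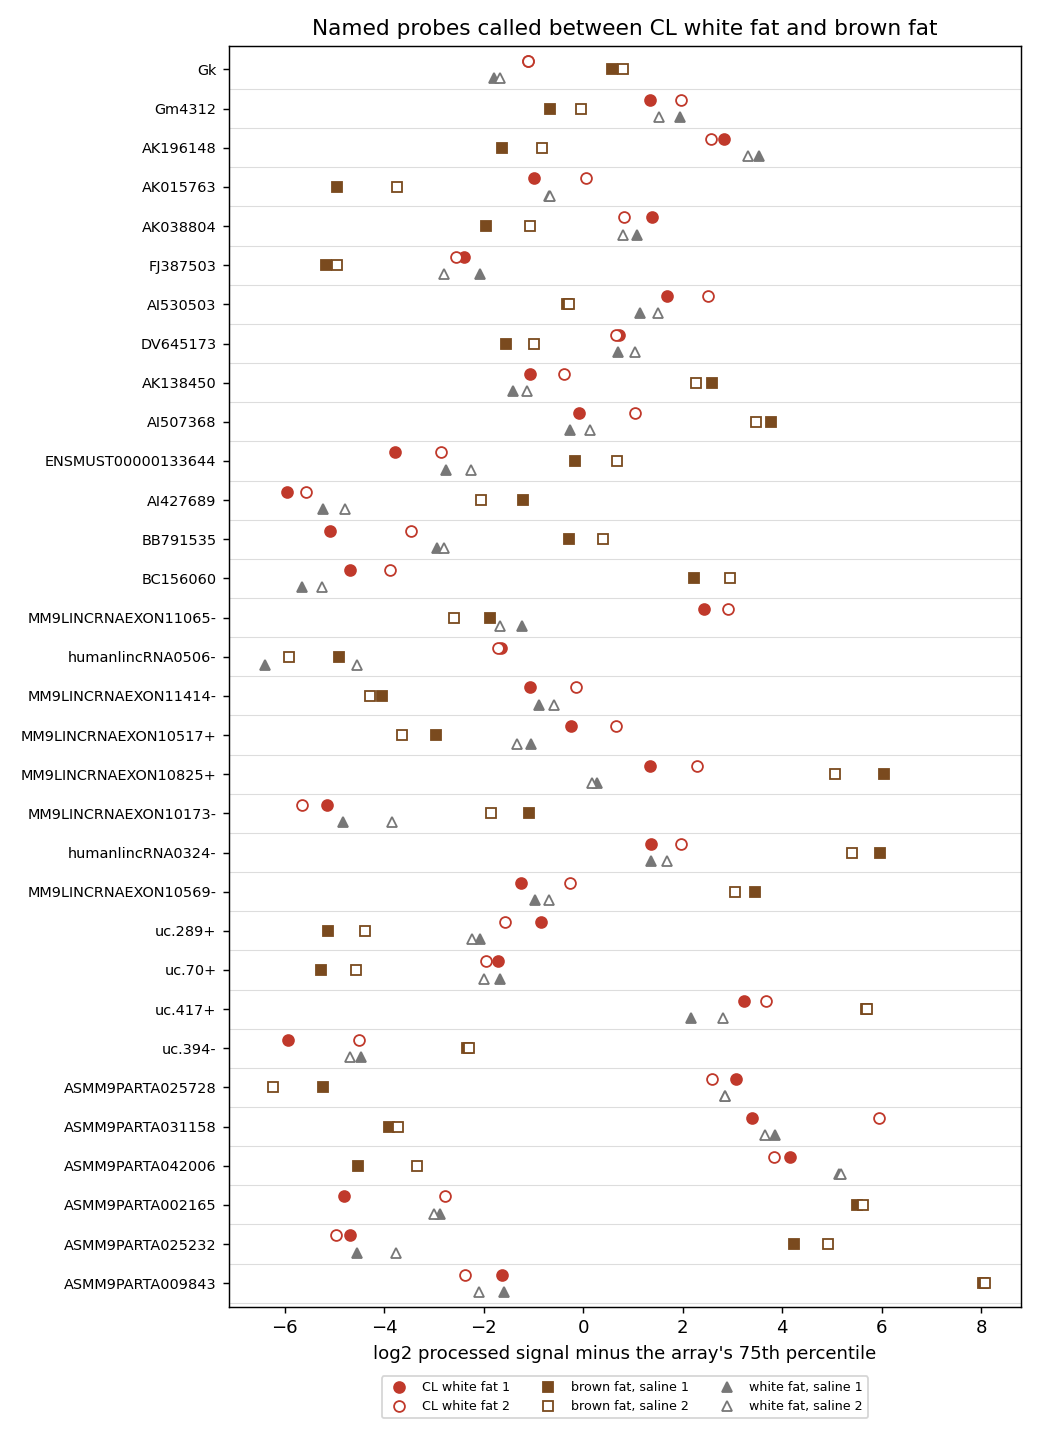
Level of each named called probe (rows) on every tissue array (x axis, log2 signal relative to the array's 75th percentile), with CL white fat, brown fat and saline white fat one below another and replicate 1 filled, replicate 2 open. MM9LINCRNAEXON11065-, humanlincRNA0506-, MM9LINCRNAEXON10517+, AI530503 and uc.289+ have both CL points above all points of both other tissues. None of these was called against saline white fat (lowest adjusted p = 0.279 by limma).

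The lincRNA probe with the largest difference was higher on both CL arrays than on any brown fat or saline white fat array. MM9LINCRNAEXON11065- had 2.44 and 2.92 in CL white fat, against -1.88 and -2.59 in brown fat and -1.23 and -1.67 in saline white fat. The difference from brown fat was 4.91 (SE 0.42, adjusted p = 0.00366 by limma), a 30.2-fold higher signal, and it held its call in all 19 alternative settings. Its difference from saline white fat was 4.13 (SE 0.42) but was not called over all probes (adjusted p = 0.279 by limma). In cultured brown adipocytes the probe read 1.45, -0.76, -1.48 and -2.41 at days 0, 3, 5 and 7. Neither mature brown fat nor the differentiated cells thus reached the level of the CL arrays.

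humanlincRNA0506- showed a like arrangement at a dimmer level. Its 2 CL arrays read -1.65 and -1.72, whereas it was not well above background on any brown fat or saline white fat array, and CL white fat was at least 3.46-fold higher than brown fat. Having entered the test only through CL white fat, where it was high, the probe had to differ, and its call carries no weight. Its difference from brown fat ran from 1.04 to 4.24 on the log2 scale over the alternative settings. MM9LINCRNAEXON10517+ had -0.25 and 0.67 in CL white fat, against -2.95 and -3.65 in brown fat, where it was not well above background. The estimate of 11.4-fold higher is no lower bound here, and the difference ran from 1.87 to 3.97 on the log2 scale over the alternative settings. Saline white fat lay between, at -1.04 and -1.33. In cultured cells the same probe reached 3.49, 4.95, 4.60 and 5.27 over the 4 days, well over any tissue array. MM9LINCRNAEXON11414- was at least 7.30-fold higher in CL white fat, at -1.07 and -0.14, next to -0.89 and -0.59 in saline white fat.

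Of the lincRNA probes lower in CL white fat, humanlincRNA0324- had 1.37 and 1.96 on the CL arrays against 5.96 and 5.40 in brown fat (difference -4.01, SE 0.40, adjusted p = 0.00613 by limma). Saline white fat read 1.37 and 1.68, overlapping the CL pair. MM9LINCRNAEXON10569- had -1.25 and -0.27 in CL white fat against 3.45 and 3.05 in brown fat. MM9LINCRNAEXON10825+ had 1.35 and 2.29 in CL white fat against 6.04 and 5.07 in brown fat. On that probe both CL arrays lay above saline white fat, at 0.28 and 0.17, though still below brown fat. The difference from saline white fat was not called (adjusted p = 0.737 by limma). MM9LINCRNAEXON10173- was not well above background on either CL array and lay at least 4.40-fold below brown fat.

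Most lincRNA loci were probed on both strands, which allowed the 2 strands to be read separately. The 82 called lincRNA probes came from 77 loci, 40 on the plus and 42 on the minus strand. For 53 of them the opposite-strand probe was tested too, and it was itself called in 10 cases (18.9%), where 2.54% of all tested lincRNA probes were called. Those 10 probes made up 5 loci. At 4 of these loci both strands lay on the same side, namely MM9LINCRNAEXON10825, MM9LINCRNAEXON10120 and MM9LINCRNAEXON11255, lower in CL white fat, and MM9LINCRNAEXON10942, higher. The minus strand of MM9LINCRNAEXON10825 entered the test only through brown fat, where it was high, so its call adds no support there. At MM9LINCRNAEXON10204 the strands were opposed, with a difference of 2.35 on the minus strand and -1.82 on the plus strand. The minus strand was not well above background in brown fat, nor the plus strand in CL white fat. As lower bounds, CL white fat was at least 1.23-fold higher on the minus strand and at least 2.26-fold lower on the plus strand. The opposite strand differed by under 2-fold for 32 of the 53 probes, and the median absolute difference was 2.41 for the called probes and 0.87 for their opposite strands.

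**Figure D5:**
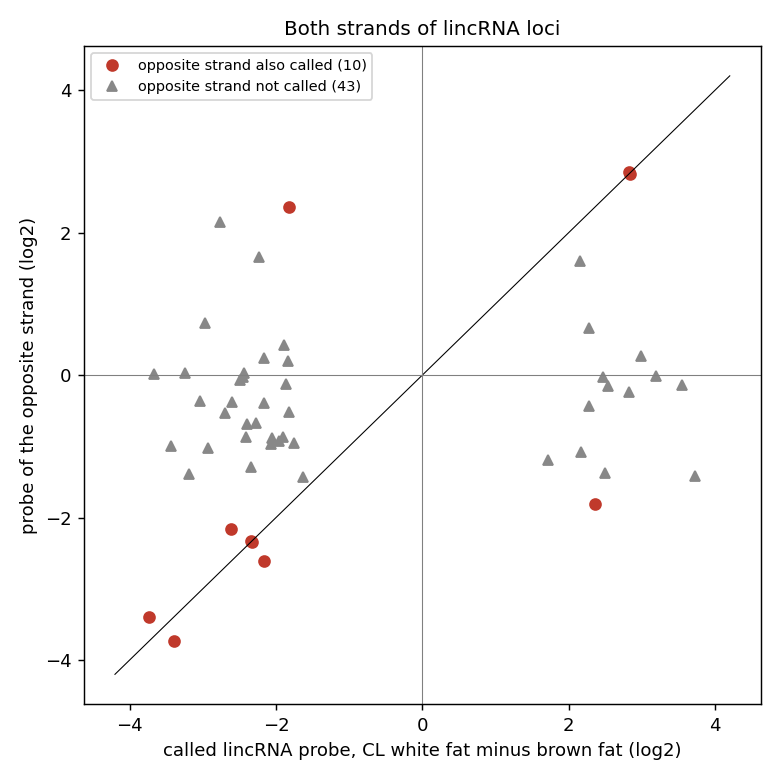
Difference between CL white fat and brown fat of 53 called lincRNA probes (x axis, log2) and of the probe on the opposite strand of the same locus (y axis, log2). The 10 probes whose opposite strand was also called are circles, some overlapping, 8 of them near the diagonal and 2 in the opposed quadrants, while most triangles lie near 0 on the y axis.

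Of the 440 tested ultraconserved element probes, 2.27% were called, against 3.50% of all tested probes. uc.289+ read -0.85 and -1.57 and uc.70+ read -1.72 and -1.96 in CL white fat. Neither was well above background in brown fat, which they exceeded by at least 4.82-fold and 3.11-fold. Both lost their calls with normexp, at differences of 1.16 and 0.79, and without brown fat replicate 1. uc.417+ was the brightest of those called lower, at 3.23 and 3.67 in CL white fat against 5.69 and 5.70 in brown fat (difference -2.25, SE 0.39, adjusted p = 0.0314 by limma). uc.394- was at least 2.44-fold lower in CL white fat, with a difference from -3.61 to -1.08 over the alternative settings. It entered the test only through brown fat, where it was high, so its call carries no weight.

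The widest differences of all lay among probes known by design number alone. ASMM9PARTA009843 had -1.64 and -2.37 in CL white fat against 8.03 and 8.07 in brown fat, where it was among the bright probes. Its difference of -10.06 (SE 0.41, adjusted p = 0.000423 by limma) corresponded to a signal 1070-fold lower in CL white fat, and saline white fat read -1.59 and -2.10. ASMM9PARTA025232 was at least 291-fold lower and not well above background on either CL array. ASMM9PARTA002165 had -4.80 and -2.78 in CL white fat against 5.50 and 5.63 in brown fat. On the other side, ASMM9PARTA025728 had 3.08 and 2.59 in CL white fat and was at least 79.2-fold higher than in brown fat. ASMM9PARTA042006 read 4.16 and 3.83 in CL white fat and -4.52 and -3.34 in brown fat. For ASMM9PARTA031158 the CL arrays disagreed by 2.55, at 3.39 and 5.94, though both were far above the brown fat levels of -3.90 and -3.72.

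ASMM9PARTA029387 was singled out after its values were seen, as the probe by which brown fat most exceeded saline white fat. It had 4.80 and 3.77 in CL white fat, against 9.05 and 8.56 in brown fat, and -2.31 and -3.98 in saline white fat. The difference between CL white fat and brown fat was -4.52 on the log2 scale. Having been picked for its gap between brown fat and saline white fat, the probe gets no test, and a CL level between the 2 was close to fixed by that choice. In cultured brown adipocytes it read -4.93, -1.70, 0.75 and 3.05 at days 0, 3, 5 and 7.

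Detection alone separated few probes. On 611 tested probes (1.40%) both CL arrays but neither brown fat array were well above background, and on 705 (1.62%) the reverse held. For lincRNA probes these counts were 35 and 83 of 3227, and for transcript accession probes 7 and 25 of 897. RefSeq probes showed no such switch in either direction among 119 tested.

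The CL arrays disagreed most on a small set of named probes, picked as those with the widest gaps between them. ENSMUST00000159764 had 4.46 on CL replicate 1 and 0.83 on replicate 2, on either side of 2.67 and 1.93 in brown fat. MM9LINCRNAEXON10348- had 1.78 and -1.69 against -1.33 and -1.01 in brown fat. BQ895499 had 1.81 and -1.66 against -3.33 and -2.01 in brown fat, so that both CL arrays were higher but by unequal amounts. The gap ran the other way for humanlincRNA2253-, at -3.52 and 1.97 against -4.32 and -1.51 in brown fat. MM9LINCRNAEXON10492+ had -3.52 and 0.00 against -1.31 and -1.30 in brown fat. B020031M17Rik had -1.81 and 0.84 against -2.13 and -2.41 in brown fat. None of these 6 was called with both CL arrays, the adjusted p by limma ranging from 0.171 to 0.889.

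The called probes were also read in cultured brown adipocytes, on single arrays without replicates, and the shares were not tested. Of the 866 probes higher in CL white fat, 23.8% were at least 2-fold higher and 22.1% at least 2-fold lower at day 7 than at day 0. Of the 657 lower in CL white fat, 19.3% were higher and 11.1% lower by that measure. Over all tested probes the shares were 9.40% and 10.6%. Of the 26 lincRNA probes higher in CL white fat, 3 were at least 2-fold higher and 6 at least 2-fold lower at day 7. Of the 56 lower in CL white fat, 4 were higher and 5 lower. Over all tested lincRNA probes the shares were 4.96% higher and 6.97% lower. ASMM9PARTA025232, bright in brown fat alone among the tissues, read between -6.98 and -4.45 in the cells and was not well above background on any of their 4 arrays.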

How the data were processed

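Spot intensity values in the deposited scanner files were made with Agilent Feature Extraction, version 11.0.1.1 per the file headers and 9.1 per the submitters' processing notes. The deposited value table holds log2 values for 18997 probes, made by steps that the sources used here do not state. Its columns followed the log2 signal of their own arrays (correlation 0.999 to 1). The log2 of the background-subtracted processed signal was scaled to each array's 75th percentile, outlier spots were left out and spots of a probe were averaged. limma 3.58.1 in R 4.3.3 was fitted on the 6 tissue arrays (3 residual degrees of freedom), with two-sided p-values adjusted by Benjamini-Hochberg over all tested probes. For each CL array alone, the other CL array was left out. Where no array of a group had a probe well above background, the fold was taken against the higher of 2 signals on each array. These were the dim probe's own signal and the lowest signal marked well above background. That fold is a lower bound unless the probe's own signal was the higher throughout, as for MM9LINCRNAEXON10517+. RefSeq accessions were named through RefSeq's gene table for GRCm38.p6. P-values measure the spread between these arrays, and 2 arrays per group limit the precision.

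Named probes were every called probe with a symbol, every probe on the gene lists, a fixed number of the most different called probes in each class, and the 3 widest gaps in each direction between the CL arrays. The comparison, the probes and the lists were chosen with earlier results of these data known. The fit was tested on simulated data that gave each probe the same spread in all tissue groups. That test therefore does not cover the unequal gaps of the CL and brown fat pairs. Probe sequences were not used here.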

Additional observations from a re-analysis of the deposited data

Results flagged for a closer look

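The arrays carry 1200 negative control spots each, which match no transcript and enter no comparison above. Of these, 10.9% and 19.6% were marked well above background on the CL arrays and 13.8% and 23.8% on the brown fat arrays, the 23.8% being on brown fat replicate 2. Signal in control spots is what drew attention here. The mark alone therefore does not show that a dim probe detected its transcript, which bears on the 611 and 705 probes separated by detection and on the dim lincRNA and ultraconserved element probes.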

How the results depend on the processing

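The count of 1523 called probes was 999 with the 4 arrays of the comparison alone, 264 with array weights, 544 without a filter, 2325 with an intensity trend, 202 at an adjusted p under 0.01, and 2600 with slide row as a block, an alternative chosen after seeing the data. With the replicate block it was 2197. Leaving out 1 array gave between 209 (without brown fat replicate 1) and 11515 (without CL replicate 2), with 2366 without CL replicate 1, 291 without brown fat replicate 2 and 999 without either saline white fat array, where the lone saline array adds nothing to the spread. The share of calls higher in CL white fat, 56.9%, was 46.9% and 46.7% over probes well above background on all 6 or all 4 arrays, 49.3% with quantile normalization, 49.1% with median scaling, 32.8% in the deposited value table and 49.5% at an adjusted p under 0.01. Leaving out 1 array gave 42.6% to 69.6%. CL replicate 1 alone gave 4734 calls with 3 arrays, 2203 without a filter and 23491 with normexp. CL replicate 2 alone gave 0 calls by limma with 3 arrays (10935 at an unadjusted p under 0.05), 7 without a filter, 5316 over probes well above background on all 6 arrays, 6208 with normexp and 1249 with quantile normalization. Of 859 values of named probes under alternatives, 75 lost and 10 gained a call and no called probe changed sign. Leaving out either saline white fat array repeats the fit of the 4 arrays alone. Such repeats are included in these values and in the settings counted for each named probe. The cause of these changes was not tested. The deviations of same-numbered arrays correlated at -0.0824 between CL white fat and brown fat, 0.504 between CL and saline white fat and -0.0238 between brown fat and saline white fat, over 2 pairs each. They moved together in 1 of the 3 comparisons, and no label says what a number shares.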
